A study of Mus musculus with 55 samples.

Results

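The immunoglobulin light chain genes were followed through 5 stages of B cell development in mouse bone marrow by the probe sets whose array annotation names only Iglc1, Igk, Igkv4-91 or Igkv5-43. This rule found 5 of the 13179 probe sets, 1 for lambda and 4 for kappa, which stand for 4 of the 6137 genes that a probe set names alone. An antibody, and the B cell receptor from which it derives, pairs heavy chains with light chains of a single type, kappa or lambda. Each light chain gene is assembled by V(D)J recombination of a V and a J segment, which takes place mainly in small pre-B cells. Before that, the heavy chain pairs with a surrogate light chain made of the products of Vpreb genes and Igll1 (lambda 5). In the mouse most B cells end up with kappa.

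RNA was taken from cells sorted out of mouse bone marrow. The gate was B220+ c-kit+ for pre-BI cells and B220+ CD25+ sIg- (no surface immunoglobulin) for large and small pre-BII cells. Immature B cells were B220 low and sIgM+, and mature B cells B220 high and sIgM+ (the label of immature B sort 1 on 1 of its arrays gives no gate). Strain, age and sex of the mice, the number of animals pooled and the staining for kappa or lambda are not given in the sources used here. There were 26 preparations, 6 of pre-BI cells and 5 of every later population, numbered by sort. Each was hybridised to 2 oligonucleotide array designs with different probe sets, called here the first set and the b set, giving 55 arrays. A first-set array titled as a repeat of mature B sort 1 matched mature B sort 11 in all 6584 values, so the pair was counted once, under sort 11. Which title is right is not known.

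The values are the authors' intensities after quantile normalisation between arrays, in arbitrary units, and they can be negative. A noise limit was set from the negative values. It was 249 for the first set, where 40.2% of values exceeded it, and 318 for the b set, where 20.2% did. Of 13179 probe sets, 10230 were tested in limma, and a difference is called where the Benjamini-Hochberg adjusted p over all of them is under 0.05. Folds are between means of log2 values raised to the noise limit and are lower bounds, given as "at least", where most preparations of the dimmer population lay under that limit. The log2 differences with SE come from the limma fit, which uses a lower floor (87.3 and 7 for the first and the b set), so for dim probe sets they are larger than the folds. Because the labels do not say whether sorts came from separate animals, the p-values cover the spread among these preparations alone, which may be technical. In sorted populations, fewer cells with a transcript and less of it per cell cannot be told apart. The number of arrays limits the precision throughout.

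The surface markers used for sorting were only partly visible as RNA. Kit, the gene of c-kit, exceeded the noise limit in 2 of 6 pre-BI preparations and in no later one. Of the 2 probe sets of Il2ra, the gene of CD25, k02891_s_at exceeded it in 1 of 5 small pre-BII preparations and in no large pre-BII preparation, and the other, on the b set, in no preparation. Ighd, which encodes the delta heavy chain of mature B cells, lay between 701 and 1023 in the mature preparations, and between 96.6 and 340 in immature ones.

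The lambda probe set, m94351_at on the first set, is annotated as Iglc1. This gene is the lambda 1 constant region, on chromosome 16 in RefSeq's GRCm38.p6 annotation. The b set carries a pair of kappa probe sets annotated as Igkv4-91, x88903_f_at and one whose identifier starts with Msa. It also carries M35667_f_at, annotated as Igkv5-43. Both genes are V segments on chromosome 6. The remaining kappa probe set, M86751_f_at on the first set, carries the symbol Igk, which stands for the kappa locus as a whole and names no segment. None of the 4 is annotated as the kappa constant region, Igkc. In the array maker's naming the letter f marks probes shared by a gene family, so signals of these V segments may include other V segments of similar sequence, and a value cannot be assigned to 1 segment with certainty. All 5 probe sets passed the filter on low values, but they differed in brightness. Iglc1 exceeded the noise limit in 25 of 26 preparations, Igk in 10, the Msa probe set in 14, x88903_f_at in 19 and Igkv5-43 in 2. The moderated F test over the 5 populations called all 5 probe sets, with adjusted p of 1.88e-15 for Iglc1, 0.000642 for Igk, 0.00102 and 3.67e-05 for the Igkv4-91 pair, and 0.0283 for Igkv5-43, where it called 14.8% of all tested probe sets.

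Iglc1 was not lowest in the earliest cells. In pre-BI cells it had a lowest value of 631, a median of 872.6 and a highest value of 1272. In large pre-BII cells it measured 438.9, 228.6, 397.5, 252 and 298.6, with 1 of the 5 under the noise limit. In small pre-BII cells it measured 5305, 5694, 7612, 3903 and 4534. The small pre-BII preparations all lay above every preparation of both earlier stages, and large pre-BII was the dimmest stage, with no overlap with pre-BI cells. In immature B cells the values were 8900, 7612, 6969, 6891 and 6413, and in mature B cells 1535, 2918, 2174, 1507 and 2457. Mature cells thus lay under all immature and small pre-BII preparations and above all pre-BI ones. Means were 898.5 ± 252.6 in pre-BI (SD, n = 6), 323.1 ± 91.57 in large pre-BII cells, 5410 ± 1412 in small pre-BII cells, 7357 ± 962.5 in immature and 2118 ± 606.7 in mature B cells (SD, n = 5 each).

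**Figure D1:**
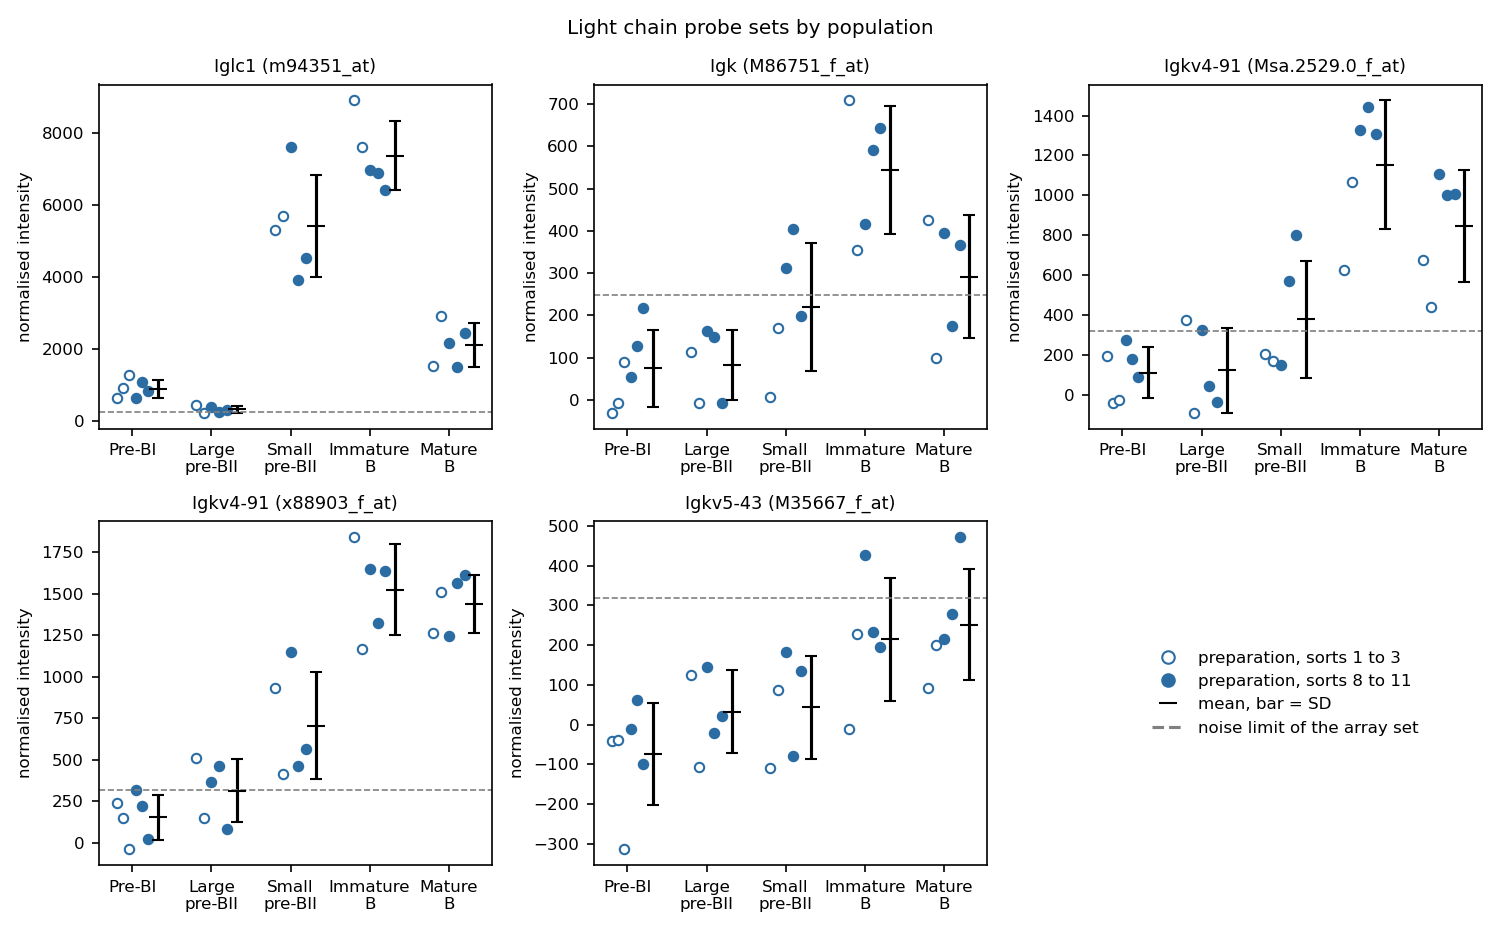
Normalised intensity (arbitrary units, linear axis) of the 5 light chain probe sets in the 26 preparations, by population in developmental order. Open points are sorts 1 to 3 and filled points sorts 8 to 11, the cross-line and bar are mean and SD, and the dashed line is the noise limit (249 for first-set and 318 for b-set probe sets). Iglc1 is high in small pre-BII and immature B cells and lower in mature B cells, while x88903_f_at averages 1440 in mature and 1524 in immature B cells.

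The kappa locus probe set Igk stayed near or under noise until late. In pre-BI cells its lowest, median and highest values were -30.78, 71.39 and 217.7. Large pre-BII cells gave 113.2, -7.19, 164.1, 148.1 and -7.04. No preparation of either stage exceeded the noise limit. Small pre-BII cells gave 5.89, 170.7, 312.7, 405.7 and 199.2, with 2 of 5 above it. Immature B cells gave 709.6, 354.7, 416.4, 592.7 and 643.3, and mature B cells 425.2, 99.93, 394, 174.4 and 365.6. All 5 immature preparations and 3 of 5 mature ones exceeded the limit, and the immature values overlapped both those of small pre-BII and those of mature cells.

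The Igkv4-91 probe set x88903_f_at was under the noise limit in 5 of 6 pre-BI preparations and over it in all small pre-BII, immature and mature ones. Its lowest, median and highest values in pre-BI cells were -38.02, 187.9 and 322, and large pre-BII cells gave 509.4, 150.1, 368.8, 463.4 and 82.37. Small pre-BII cells gave 929.7, 417.4, 1152, 465.9 and 565.9, all above the noise limit. The values were 1843, 1165, 1650, 1323 and 1637 in immature B cells and 1265, 1511, 1243, 1564 and 1615 in mature B cells. These last stages overlapped each other, and all of their 10 preparations lay above every earlier one. Means were 154.1 ± 137.4 in pre-BI (SD, n = 6), 314.8 ± 189.7 in large pre-BII cells, 706.2 ± 320 in small pre-BII cells, 1524 ± 273.8 in immature and 1440 ± 173.5 in mature B cells (SD, n = 5 each).

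The Msa probe set of Igkv4-91 gave -44.65, 132.3 and 275.6 as the lowest, median and highest in pre-BI cells. It gave 376.3, -92.06, 321.6, 42.39 and -36.72 in large pre-BII cells, and 204, 166.4, 146.1, 571.4 and 800.9 in small pre-BII cells. Each pre-BII stage had 2 of 5 preparations above the noise limit. Immature B cells gave 626.4, 1069, 1325, 1441 and 1305, and mature B cells 675.9, 437, 1108, 1003 and 1008, all above it. Across the 26 preparations, which share arrays and stages, the Igkv4-91 pair had a Pearson r of 0.78 on log2 values. After subtraction of population means it was 0.55. Igkv5-43 exceeded the noise limit only in 1 immature preparation, at 425.7, and in 1 mature preparation, at 472.8. Its means were -73.49 in pre-BI, 32.35 in large pre-BII cells, 43.36 in small pre-BII cells, 214.5 in immature and 251.8 in mature B cells.

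The order of the population means differed between lambda and kappa, but the fit did not separate neighbours in the kappa order. For Iglc1 it was immature, small pre-BII, mature, pre-BI and large pre-BII from high to low, and every neighbouring pair differed beyond the spread except immature and small pre-BII (adjusted p = 0.574). For Igk and both Igkv4-91 probe sets it was immature, mature, small pre-BII, large pre-BII and pre-BI, and no neighbouring pair differed beyond the spread in the fit, with adjusted p from 0.161 to 1. For Igkv5-43 mature came before immature, and again no neighbours were called, with adjusted p from 0.771 to 0.967. The kappa differences that passed were between stages further apart. With the floor at the noise limit some kappa neighbours were called, as given below. For x88903_f_at, mature and small pre-BII cells did not overlap (2.2-fold). The SE there was 0.696 in the fit and 0.296 on log2 values raised to the noise limit. For the Msa probe set the fit placed large pre-BII under pre-BI cells (log2 difference -0.294), against the order of the means.

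The first step asked what happens to light chain transcripts between pre-BI and large pre-BII cells, the dividing cells that have just expressed a heavy chain. Iglc1 fell, with a mean of 323.1 in large pre-BII cells against 898.5 in pre-BI cells, 2.73-fold lower in large pre-BII cells (log2 difference -1.47 ± 0.236 SE, adjusted p = 0.000152). None of the 4 kappa probe sets was called. The 1 lower call among 5 light chain probe sets compares with 0.997% of all tested probe sets called lower and 1.87% called in either direction. Within sorts 1 to 3 the log2 difference of Iglc1 was -1.51 (adjusted p = 0.275), and within sorts 8 to 11 it was -1.44 (adjusted p = 0.0245). On the intensities as deposited, without scaling, it was -1.22 and was not called (adjusted p = 0.937). The surrogate chain genes moved the same way. Igll1, whose product resembles lambda J and C regions in sequence, averaged 428.7 in large pre-BII cells against 3440 in pre-BI cells (5.94-fold lower, adjusted p = 0.0407), and Vpreb1 783.9 against 4508 (6.12-fold lower, adjusted p = 0.0266). The part of Igll1 RNA in the signal of the Iglc1 probe set was not tested. Among pre-BI preparations Igll1 was 1225 to 1859 in sorts 1 to 3 and 3820 to 6162 in sorts 8 to 10, and Iglc1 was 631 to 1272 and 645.4 to 1097. In small pre-BII cells, where Iglc1 averaged 5410, no preparation exceeded the noise limit for Igll1. Values of that stage say nothing about the source of the Iglc1 signal in pre-BI cells.

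The step to small pre-BII cells, which have left the cell cycle and rearrange their light chain genes, was the largest of the 4 consecutive steps for lambda. Iglc1 averaged 5410 in small pre-BII cells against 323.1 in large pre-BII cells, 16.6-fold higher (log2 difference 4.07 ± 0.246 SE, adjusted p = 2.11e-13). It was called in every alternative setting tried, and its log2 difference was 4.12 within sorts 1 to 3 and 4.05 within sorts 8 to 11. The kappa probe sets had higher means in small pre-BII cells, but none was called. For x88903_f_at the log2 difference was 1.35 ± 0.696 (adjusted p = 0.367), for the Msa probe set 2.63 ± 1.01 (adjusted p = 0.161), for Igk 0.834 ± 0.441 (adjusted p = 0.382) and for Igkv5-43 0.501 ± 1.17 (adjusted p = 0.908). The 1 higher call of 5 compares with 2.03% of all tested probe sets. With the floor at the noise limit x88903_f_at was called too (log2 difference 0.749, adjusted p = 0.0426). The Msa probe set was called when large pre-BII sort 1 was left out (log2 difference 3.37, adjusted p = 0.049).

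Against pre-BI cells, 2 of the 5 probe sets were higher in small pre-BII cells, where 3.29% of all tested probe sets were called higher. Iglc1 was 6.06-fold higher (adjusted p = 1.7e-09) and x88903_f_at at least 2.05-fold higher (log2 difference 2.9 ± 0.666 SE, adjusted p = 0.00382), without overlap in either case.

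Between immature B cells, which carry surface IgM, and small pre-BII cells none of the 5 probe sets was called in limma, where 2.19% of all tested probe sets were. The unadjusted p was 0.00457 for Igk and at least 0.0645 for the other 4. All 5 had the higher mean in immature cells. The mean of x88903_f_at was 1524 in immature cells and 706.2 in small pre-BII cells, 2.31-fold higher without overlap (log2 difference 1.2 ± 0.696 SE, adjusted p = 0.66). Igk averaged 543.3 against 218.9 (at least 1.83-fold, adjusted p = 0.143), the Msa probe set 1153 against 377.8 (at least 2.58-fold, adjusted p = 0.592) and Iglc1 7357 against 5410 (1.39-fold, adjusted p = 0.574). On this step the floor decided the kappa calls. With values raised to the noise limit before the fit, Igk (adjusted p = 0.00259), the Msa probe set (0.00133) and x88903_f_at (0.00136) were called higher in immature cells, and Iglc1 was not (0.397).

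**Figure D2:**
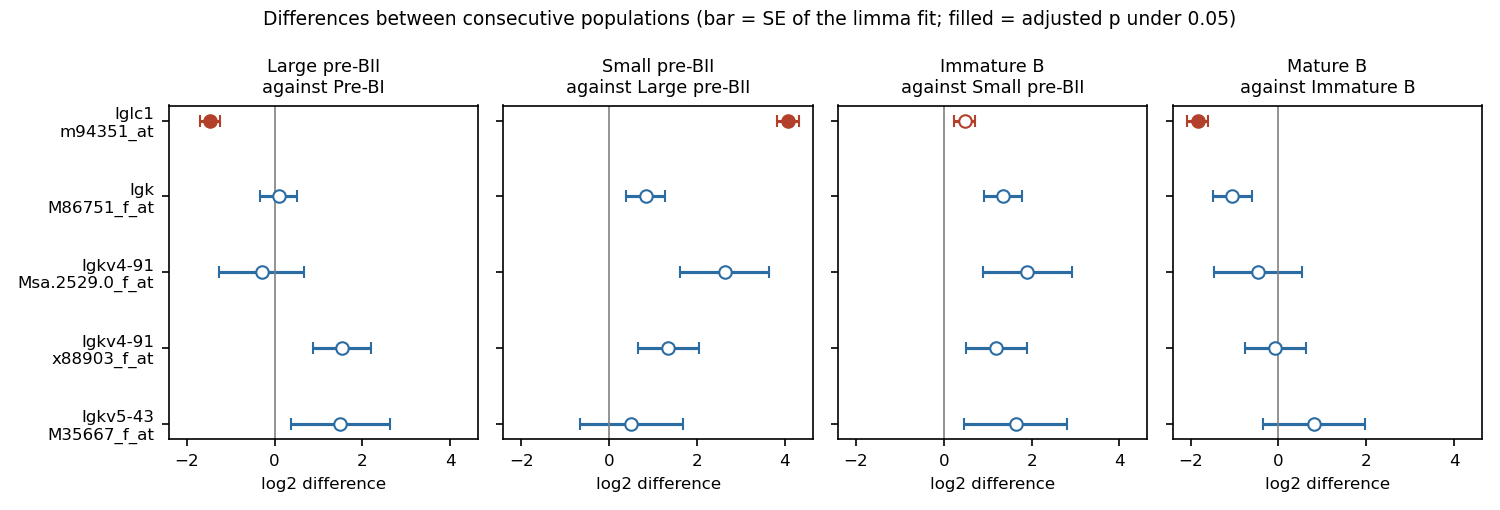
Log2 differences of the limma fit (horizontal axis, later minus earlier population) for each light chain probe set at the 4 consecutive steps, with SE bars. Filled points passed an adjusted p of 0.05. Only Iglc1 has filled points, and it changes direction from -1.47 to 4.07 and then to -1.84 along the series.

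In immature B cells all 5 light chain probe sets were called higher than in pre-BI cells, where 4.3% of all tested probe sets were. Iglc1 was 8.41-fold higher in immature than in pre-BI cells (adjusted p = 1.94e-11). Igk was at least 2.11-fold higher (log2 difference 2.27 ± 0.422 SE, adjusted p = 0.000214), the Msa probe set at least 3.49-fold (adjusted p = 0.00297), and x88903_f_at at least 4.72-fold (adjusted p = 3.73e-05). The call of Igkv5-43 (adjusted p = 0.036) rested on values near noise: it averaged 214.5 in immature and -73.49 in pre-BI cells, 1 of these 11 preparations exceeded the noise limit, and the groups overlapped. With the floor at the noise limit it was not tested. Against large pre-BII cells 4 of 5 were higher, where 4% of all tested probe sets were called higher. Iglc1 was 23-fold higher there, Igk at least 2.11-fold, the Msa probe set at least 3.36-fold and x88903_f_at 3.87-fold, with adjusted p from 1.23e-14 to 0.0151.

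Between mature and immature B cells, Iglc1 fell and no kappa probe set was called. Iglc1 averaged 2118 in mature cells against 7357 in immature cells, 3.57-fold lower in mature cells (log2 difference -1.84 ± 0.246 SE, adjusted p = 8.11e-06). The log2 difference was -1.96 within sorts 1 to 3 (adjusted p = 0.0989) and -1.75 within sorts 8 to 11 (adjusted p = 0.00387). On the unscaled deposited intensities it was -2.12 and was not called (adjusted p = 0.117). The 1 lower call of 5 compares with 0.733% of all tested probe sets. For x88903_f_at the log2 difference was -0.0704 ± 0.696, for the Msa probe set -0.466 ± 1.01, for Igk -1.05 ± 0.441 and for Igkv5-43 0.813 ± 1.17, with adjusted p from 0.476 to 1. Igk had the lower mean in mature cells, 291.8 against 543.3 in immature cells, and was called lower with the floor at the noise limit (log2 difference -0.678, adjusted p = 0.036). The constant region gene of the mu heavy chain, Ighm, averaged 12800 in mature and 14270 in immature cells, with a log2 difference of -0.146 (adjusted p = 0.936) by the first-set probe set J00475_V00821_f_at. By X03690_s_at on the b set its values ran from 3104 to 7936 in mature and from 7676 to 15540 in immature cells, so this pair of probe sets differed.

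Against pre-BI cells 4 of 5 probe sets were higher in mature cells, where 4.78% of all tested probe sets were called higher. Iglc1 was 2.36-fold higher (log2 difference 1.24 ± 0.236 SE, adjusted p = 0.000259), x88903_f_at at least 4.49-fold (adjusted p = 4.33e-05) and the Msa probe set at least 2.52-fold (adjusted p = 0.00767). Igkv5-43 averaged 251.8 in mature and -73.49 in pre-BI cells (adjusted p = 0.00643), with 1 of 5 mature preparations and no pre-BI preparation over the noise limit. Igk was not called (adjusted p = 0.0586), although it was when pre-BI sort 10, small pre-BII sort 1 or 9, or mature B sort 3 was left out, with adjusted p down to 0.0124. Only 1 probe set was called within sorts 1 to 3, and 2 within sorts 8 to 11, for which no share of all tested probe sets is given. Against large pre-BII cells 3 probe sets were higher in mature cells, where 5.22% of all tested were: Iglc1 by 6.43-fold, the Msa probe set by at least 2.43-fold and x88903_f_at by 3.69-fold. Against small pre-BII cells Iglc1 was lower in mature cells by 2.57-fold (adjusted p = 0.000307), where 2.3% of all tested probe sets were called lower. There x88903_f_at was higher by 2.2-fold without overlap but was not called (adjusted p = 0.542).

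Levels of different probe sets are not comparable, but a change of lambda relative to kappa between populations is, where both are above noise. For each preparation the log2 value of Igk was subtracted from that of Iglc1, both on the first set. Igk exceeded the noise limit in none of the 11 pre-BI and large pre-BII preparations, so between these populations the difference held only the change of Iglc1 and says nothing about kappa. The change of the difference was -1.57 there (-1.45 with values raised to the noise limit, the same as for Iglc1 alone). Its mean was 4.67 in small pre-BII cells against 1.43 in large pre-BII cells, a change of 3.24 ± 0.479 (SE, exact two-sided permutation test, p = 0.00794, the smallest that 5 against 5 preparations can give, 0.0198 adjusted over 5 comparisons). Here too Igk exceeded the limit in only 2 of the 10 preparations. The next changes did not pass: -0.874 ± 0.475 between immature and small pre-BII cells (exact permutation p = 0.103, adjusted 0.172) and -0.79 ± 0.546 between mature and immature cells (exact permutation p = 0.183, adjusted 0.228). With same-numbered sorts paired, mature minus immature was -1.8, -1.6, -0.428 and -0.568, lower in 4 of 4 pairs with a mean of -1.1. The smallest p that 4 pairs can give in an exact test is 0.125 (adjusted p = 0.208).

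The later changes depended on the floor and on the kappa probe set. With values raised to the noise limit, lambda fell relative to Igk between mature and immature cells by 1.16 ± 0.337 (exact permutation p = 0.0238, adjusted 0.0298). Igk exceeded the limit in 5 of 5 immature but 3 of 5 mature preparations. Raising its mature values of 99.93 (sort 3) and 174.4 (sort 9) lowered the difference from 4.868 to 3.549 and from 3.112 to 2.595. Part of the change of 1.16 thus comes from the floor. Paired by sort number, the difference was lower in 4 of 4 pairs, with a mean of -1.23. With x88903_f_at as the kappa measure, an alternative chosen after seeing the data, and the same floor, the mean difference was 0.517 in mature against 2.28 in immature cells. This was a change of -1.76 ± 0.223 (exact permutation p = 0.00794, adjusted 0.00992). In the 5 mature preparations it was 0.278, 0.949, 0.806, -0.0538 and 0.605, and in the 5 immature ones 2.27, 2.71, 2.08, 2.38 and 1.97, without overlap, and all of these preparations exceeded the limit for both genes. With same-numbered sorts paired, mature minus immature was lower in 4 of 4 pairs with a mean of -1.77. An exact test on 4 pairs can give no p under 0.125. The signal of x88903_f_at stands for V segments, a part of kappa RNA. It comes from the b set, which was normalised apart from the first set. By this measure Iglc1 also fell relative to x88903_f_at between immature and small pre-BII cells. The mean difference was 2.28 in immature against 3.02 in small pre-BII cells (change -0.733 ± 0.249, exact permutation p = 0.0159, adjusted 0.0159). Paired by sort number, the difference was lower in immature cells in 3 of 3 pairs with a mean of -0.524, where an exact test can give no p under 0.25. In small against large pre-BII cells it was 3.02 against -0.285, a change of 3.3 ± 0.271 (exact permutation p = 0.00794, adjusted 0.00992), with 5 of 5 small and 3 of 5 large pre-BII preparations over the limit for x88903_f_at. With the Msa probe set and the lower floor of the limma fit, the change was -1.37 between mature and immature cells and -1.43 between immature and small pre-BII cells, and neither passed (adjusted p = 0.119 for both). Between mature and pre-BI cells no direction is given, because 0 of 6 pre-BI preparations exceeded the limit for Igk and 1 of 6 for x88903_f_at.

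**Figure D3:**
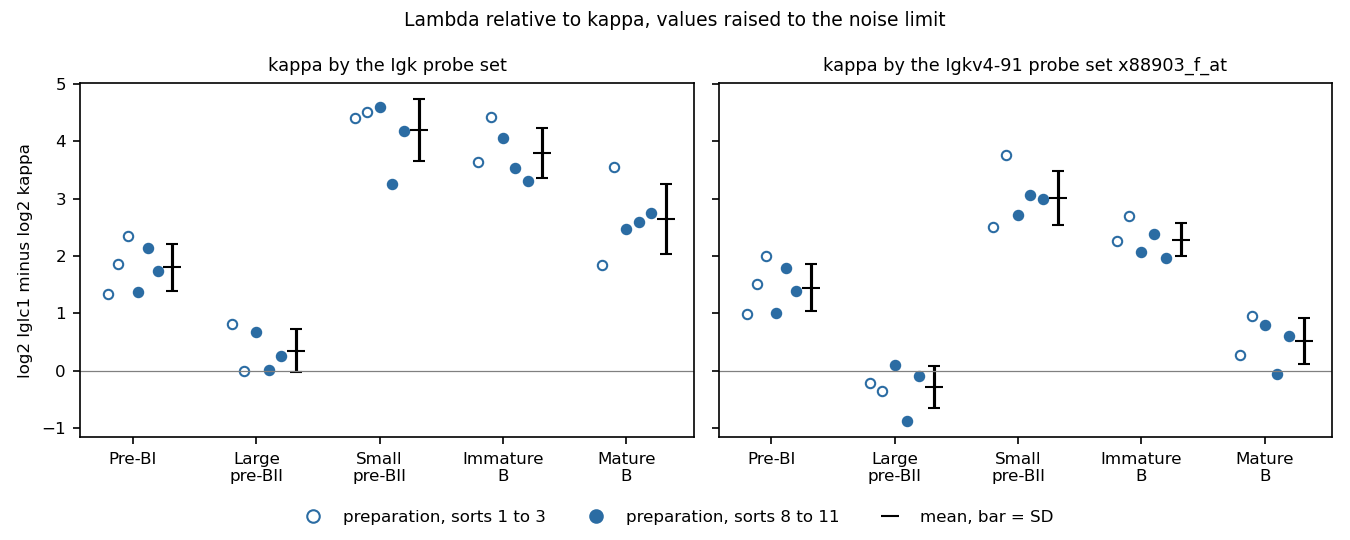
Log2 of Iglc1 minus log2 of a kappa probe set (vertical axis, log2 units, values raised to the noise limit) in each preparation, with mean and SD by population. The left panel uses Igk, with mean 4.2 in small and 0.352 in large pre-BII cells. In pre-BI and large pre-BII cells all Igk values are at the limit, so those points show Iglc1 alone. The right panel uses x88903_f_at, with mean 0.517 in mature and 2.28 in immature B cells, whose preparations do not overlap. The zero line has no meaning of its own, because the 2 probe sets have different brightness.

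The other 3 probe sets of the kappa locus carry Igk together with a V segment symbol and were left out of the members, since they name no single gene. One of them, U62386_s_at, averaged 374.2 in mature, 363.6 in immature and 34.31 in small pre-BII cells. It was at least 1.47-fold higher in immature than in small pre-BII cells (log2 difference 1.78 ± 0.393 SE, adjusted p = 0.00625), and its log2 difference between mature and immature cells was -0.0154 (adjusted p = 1). The others exceeded the noise limit in 2 preparations (M19911_at) and in none (U60442_s_at).

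The genes of the recombination machinery and of the surrogate receptor followed their own courses. The recombinase gene Rag1 averaged 5182 in small pre-BII cells against 1207 in large pre-BII cells, 4.35-fold higher (adjusted p = 4.36e-05). It averaged 123.2 in immature against 5182 in small pre-BII cells, at least 19.3-fold lower in immature cells (adjusted p = 1.74e-12), a step at which Iglc1 was not called in either direction. Its partner Rag2 averaged -127.2 in immature and 557.8 in small pre-BII cells, at least 2.15-fold lower in immature cells (adjusted p = 0.00241). Of the 8 tested genes of a list of V(D)J recombination genes, 1 was higher and 2 were lower in small than in large pre-BII cells. At this step 2.03% of all tested probe sets were called higher and 3.26% lower. The 2 lower genes encode the chromatin proteins Hmgb1 (1.73-fold, adjusted p = 0.000977) and Hmgb2 (10.6-fold, adjusted p = 0.00297), both of which help RAG bind DNA. At the step from pre-BI, Dntt, the terminal transferase that adds N nucleotides, was the 1 gene of this list called, 22.5-fold lower in large pre-BII cells (adjusted p = 0.000106). There 0.997% of all tested probe sets were called lower. Between immature and small pre-BII cells 4 of the 8 were lower and none higher, where 0.88% of all tested probe sets were called lower and 1.31% higher, with a list median of -1.5 log2 against -0.02 for all tested probe sets. None was called between mature and immature cells.

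Of 7 tested genes of receptor and surrogate chains, 2 were lower in large pre-BII than in pre-BI cells (Igll1 and Vpreb1) and none higher. Of all tested probe sets, 0.997% were called lower there and 0.87% higher. In small against large pre-BII cells 2 were higher, where 2.03% of all tested probe sets were called higher and 3.26% lower. The 2 higher genes were Cd79a (2.75-fold, adjusted p = 0.00371) and Cd79b (1.95-fold, adjusted p = 0.00297), the signalling chains of the receptor. Igll1 was the 1 lower gene, by at least 1.49-fold (adjusted p = 0.0107). None of the 7 was called between immature and small pre-BII cells, where 2.19% of all tested probe sets were. Between mature and immature cells 1 was lower: Vpreb3, a VpreB-like chain, averaged 797.7 in mature against 8444 in immature cells (13-fold lower, adjusted p = 9.96e-08). At this step 0.733% of all tested probe sets were called lower.

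**Figure D4:**
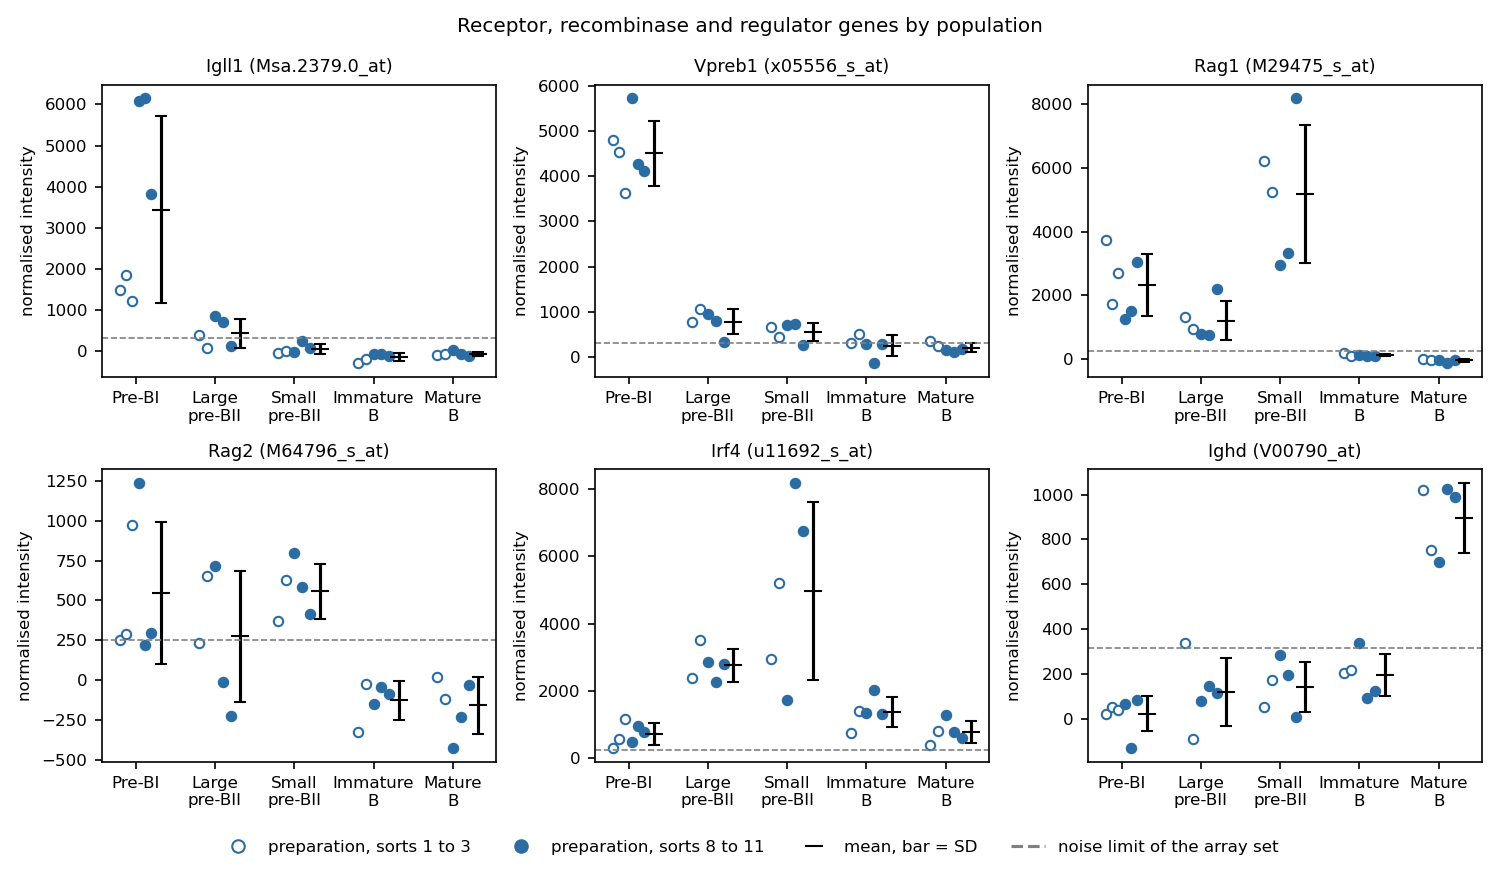
Normalised intensity (arbitrary units, linear axis) of Igll1, Vpreb1, Rag1, Rag2, Irf4 and Ighd in each preparation by population, with mean and SD and the noise limit as a dashed line. Rag1 peaks in small pre-BII cells, at 5182 on average, and is under the noise limit in every immature and mature preparation.

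Among 22 tested transcription regulators known to act at light chain loci or in light chain gene activation, 2 were higher and 1 lower in large pre-BII than in pre-BI cells. At this step 0.87% of all tested probe sets were called higher and 0.997% lower. Irf4, which activates the kappa and lambda enhancers, averaged 2768 in large pre-BII against 711.4 in pre-BI cells (4.24-fold higher, adjusted p = 0.000418). Tcf12, an E protein, was 1.99-fold higher (adjusted p = 0.0269), and Irf8, a relative of Irf4, 2.24-fold lower (adjusted p = 0.0048). In small against large pre-BII cells only Myb was called, 2.11-fold higher (adjusted p = 0.00817), and it was also the 1 gene called between mature and immature cells, 9.3-fold lower in mature cells (adjusted p = 2.31e-10). Of all tested probe sets, 2.03% were called higher at the former step and 0.733% lower at the latter. Irf4 had its highest mean, 4967, in small pre-BII cells, and averaged 1375 in immature and 779.8 in mature cells. In immature against small pre-BII cells 3 factors were higher and 3 lower, where 1.31% of all tested probe sets were called higher and 0.88% lower. The medians of this list at the 4 consecutive steps, -0.19, 0.35, -0.19 and -0.081 log2, lay beside 0, 0.06, -0.02 and 0.01 for all tested probe sets.

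Of 9 tested genes of pre-B cell receptor signalling and cell cycle exit, 2 were higher and 1 lower in large pre-BII than in pre-BI cells. Of all tested probe sets, 0.87% were called higher at this step and 0.997% lower. The kinases Blk (2.57-fold, adjusted p = 2.52e-05) and Syk (2.02-fold, adjusted p = 0.00356) were higher, and cyclin D2, Ccnd2, was at least 3.06-fold lower (adjusted p = 4.9e-07). In small against large pre-BII cells Syk was 1.65-fold higher (adjusted p = 0.0391) and cyclin D3, Ccnd3, 2.08-fold lower (adjusted p = 0.00274), where 2.03% of all tested probe sets were called higher and 3.26% lower. In mature against immature cells Ccnd2 was at least 8.29-fold lower (adjusted p = 2.48e-10) and Ccnd3 2.41-fold lower (adjusted p = 0.00095), at the step at which Iglc1 was lower.

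Plasma cells, which hold large amounts of light chain RNA, were looked for by a list of 7 markers, 5 of them on the arrays. Their surface marker gene Sdc1 exceeded the noise limit in no preparation by either of its 2 probe sets. Xbp1, a transcription factor of secretory cells, exceeded it in 1 of 6 pre-BI, 1 of 5 large pre-BII, 3 of 5 small pre-BII, 5 of 5 immature and 3 of 5 mature preparations. It averaged 416.4 in immature cells, its highest mean, and 201.3 in pre-BI cells (adjusted p = 0.164). The J chain gene, Jchain, averaged 110.3 in mature, 143.5 in immature and 156 in small pre-BII cells, with 1 of 5 preparations over the limit in each. It averaged 177.1 in large pre-BII cells, with 0 of 5 over the limit, and 145.6 in pre-BI cells, with 2 of 6. These values are from aa254605_s_at, and its other probe set, j00544_s_at, exceeded the limit in no preparation. Prdm1, which drives plasma cell formation, exceeded the limit in 1 pre-BI and 1 small pre-BII preparation. Its mean was highest in small pre-BII cells (183.6), as was that of Irf4 (4967). The summed level of the list, which includes Irf4, ranged from 770.9 to 2003 in pre-BI, 2776 to 3987 in large pre-BII, 2214 to 8810 in small pre-BII, 1672 to 2737 in immature and 597.6 to 1814 in mature cells. The part of plasma cells in the light chain values was not tested.

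Markers of other blood cells were also present, and a minority were called lower in large pre-BII than in pre-BI cells, as Iglc1 was. At that step 1 of 8 granulocyte, 2 of 5 T and NK cell, 1 of 5 monocyte and macrophage and 0 of 4 erythroid markers tested were called lower, and none higher. Of all tested probe sets, 0.997% were called lower there and 0.87% higher. Ngp, a granule protein of neutrophils, averaged 1745 in large pre-BII and 4187 in pre-BI cells (2.24-fold lower, adjusted p = 0.048), and Lyz2, the lysozyme of myeloid cells, 3033 and 5503 (1.87-fold lower, adjusted p = 0.0429). The granzyme gene Gzma averaged 353.3 in large pre-BII and 1333 in pre-BI cells (3.38-fold lower, adjusted p = 0.00651), and Thy1 -88.49 and 301.6 (adjusted p = 2.44e-05). The median of the granulocyte list was -1.2 log2 at this step, against 0 for all tested probe sets. S100a9 (396.9 and 869.7), Camp (203.8 and 469.5), Lcn2 (155.9 and 467.3) and Ltf (91.71 and 192.4) had lower means in large pre-BII cells but were not called. Elane (196.6 and 78.48) and Mpo (80.77 and 13.4) had higher means in large pre-BII cells, under the noise limit. S100a8 averaged 414.4 and 416.8 by its b-set probe set, and 376.7 and 955.7 by m83218_s_at on the first set. Summed levels of the granulocyte list ranged from 2313 to 5258 in large pre-BII and from 2397 to 9631 in pre-BI cells, those of the T and NK list from 457.5 to 902.1 and from 1020 to 3071, and those of the monocyte list from 2057 to 5821 and from 4511 to 9369. None of these 4 lists had a called member between mature and immature cells. Ngp, Lyz2 and the alpha globin gene Hba-a1 by its probe set v00714_f_at exceeded the noise limit in every preparation. Mpo, Ltf, Cd3d, Cd3g, Csf1r and C1qa of the same lists did so in none. The part of these cells in the light chain values was not tested.

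By Pearson correlation of log2 values over the 26 preparations, among 5990 probe sets of other genes, Iglc1 was most like Ly6d (r = 0.90), Fam3c (0.88), Slc25a53 (0.88), Jarid2 (0.85) and Lsp1 (0.83). Ly6d, a surface protein of B lineage cells, averaged 2180 in pre-BI, 2400 in large pre-BII cells, 9620 in small pre-BII cells, 13600 in immature and 6510 in mature cells. After subtraction of population means its r with Iglc1 was 0.18. Igk was most like Scd1 (0.80), Mcl1 (0.78), Cd53 (0.77), Gpcpd1 (0.76) and Uba7 (0.76). The nearest to x88903_f_at were Icam2 (0.86), Ablim1 (0.84), Tk2 (0.83), Kdm3b (0.82) and Rhoq (0.81). Icam2, an adhesion molecule, averaged 587 in pre-BI, 1140 in large pre-BII cells, 1270 in small pre-BII cells, 1520 in immature and 1960 in mature cells. Nearest to Igkv5-43 were Dcaf11 (0.82), Ormdl1 (0.78), Slc50a1 (0.77), Asnsd1 (0.76) and Tmem50b (0.75), most of its values being under the noise limit. Iglc1 itself had r between 0.43 and 0.67 with the kappa probe sets, and between -0.13 and 0.39 after subtraction of population means. All these correlations share arrays and are descriptions of these preparations.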

How the data were processed

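RNA of 26 sorted preparations was measured on 2 array sets. The authors deposited 1 intensity per probe set and array on a linear scale. Negative values made up 19.7 to 28% of a first-set array and 33.9 to 42.3% of a b-set array. Their extraction, scanning, summary and scaling steps and tools are not given in the sources used here. Names of genes come from the platform annotation, which can be old, and chromosomes from RefSeq.

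Groups and sort numbers come from the labels, and further arrays of the same sort were averaged. Trimmed means (2%) differed 5.6-fold and 4.22-fold between arrays, so each table, without its share of 110 controls, was quantile-normalised. The 40th percentile served as a floor before log2. The 10230 probe sets above the floor in at least 5 preparations were fitted on population with limma 3.58.1 (R 4.3.3; lmFit, then eBayes with a trend). P-values were Benjamini-Hochberg adjusted over both sets within each of 10 comparisons. The noise limit is 2 robust SD of the negative values. The scripts were tested on simulated data.

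All member probe sets are named. Other genes are named where they are among up to 4 called members of a gene list at a step with a light chain call, are Ighm, Rag1, Rag2, Igll1 or Vpreb1, serve as markers of the sorted or of other cells, or are among the 5 most alike in pattern. Irf4 was described at further stages after its values were seen. The members and lists were chosen with earlier results of these data known. Alternatives covered scaling, floor, filter, trend, sort number as a block, subsets of sorts, second arrays, each preparation left out and the kappa probe set used.

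The labels do not say that equal sort numbers share a day or animals. Deviations of same-numbered preparations correlated at r of 0.11 to 0.3 in 5 pairs of large pre-BII and pre-BI, 0.14 to 0.25 in 3 pairs of immature and small pre-BII and 0.12 to 0.21 in 4 pairs of mature and immature cells. In small and large pre-BII cells 1 of 4 pairs, and in mature and pre-BI cells 3 of 4, exceeded 0.1, so the numbers were taken to pair samples only in the first 3 cases.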

Additional observations from a re-analysis of the deposited data

Results flagged for a closer look

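In 2 of 30 groups of preparations tested with Dixon's criterion, 1 preparation stood apart from the rest, and chance alone gives about 1 in 20. Both concern Igkv5-43. In pre-BI sort 9 it read 61, where the other 5 pre-BI preparations lay between -313 and -11, all of them under the floor used for the log2 scale. In immature B sort 1 it read -11.2, where the other 4 lay between 196 and 426. Both values are under the noise limit of 318.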

How the results depend on the processing

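The fall of Iglc1 in large pre-BII against pre-BI cells and in mature against immature cells was not called on unscaled deposited intensities or within sorts 1 to 3 (0 light chain probe sets called at each of these steps, against 1). Floors at the 60th percentile and at the noise limit gave 2 calls in small against large pre-BII cells, 2 and 3 in immature against small pre-BII cells (main 0) and 2 and 2 in mature against immature cells. In mature against pre-BI cells 1 was called within sorts 1 to 3 and 2 within sorts 8 to 11 (main 4). At the noise limit Igkv5-43 no longer passed the filter. Leaving out 1 preparation gave 1 to 2 calls in small against large pre-BII cells. Shares of all tested probe sets are given for the main setting alone, so these counts have none beside them. The 25th percentile of the b set is negative, so that floor was raised to 1 there.

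Differences that changed sign lay near 0 or under the noise limit. In large pre-BII against pre-BI cells Igk went to -0.0478 unscaled, -0.0708 with the 25th percentile floor, -0.0211 with sort number as a replicate block and -0.0645 within sorts 8 to 11, and over left-out preparations ranged from -0.0324 to 0.293. At that step the Msa probe set was 0.193 with the 60th percentile floor, 0.0521 at the noise limit and 1.27 within sorts 1 to 3, and ranged from -1.04 to 0.4. Igkv5-43 in small against large pre-BII cells was -0.26 within sorts 1 to 3 and ranged from -0.0451 to 1.13. In mature against immature cells x88903_f_at was 0.017 with trimmed mean scaling and 0.226 under the replicate block, ranging from -0.162 to 0.00321, and Igkv5-43 ranged from -0.228 to 1.25, the lowest without immature B sort 1. The cause was not tested.

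For lambda minus Igk, the change between large pre-BII and pre-BI cells, in which no Igk value exceeded the noise limit, had an adjusted exact permutation p of 0.0198 and no longer passed unscaled (-1.17), with the 25th percentile floor (-1.4), under the replicate block (-1.4), within sorts 1 to 3 (-1.68) or 8 to 11 (-1.37), or with the Msa probe set as kappa (-1.18). The change between small and large pre-BII cells no longer passed with the 25th percentile floor (2.33), the block (3.13), sorts 1 to 3 (3.82) or 8 to 11 (2.85), or the Msa probe set (1.45). The block and the subsets hold too few preparations to reach the threshold. The change between immature and small pre-BII cells ranged from -1.23 (passing without small pre-BII sort 9, adjusted exact permutation p = 0.0265) to -0.561, and passed with x88903_f_at (-0.733 with either floor). That between mature and immature cells ranged from -1.25 (passing without mature B sort 3, adjusted exact permutation p = 0.0132) to -0.501, and passed with the 60th percentile and noise limit floors (-1.16 each) and with x88903_f_at (-1.76 with either floor). Between mature and pre-BI cells it was -0.128 with trimmed mean scaling, -0.106 with 75th percentile scaling, -1.52 with the 25th percentile floor, 0.847 with the 60th, 0.84 at the noise limit, -0.0953 under the replicate block, -2.8 and -0.932 with x88903_f_at without and with the noise floor, and -2.54 with the Msa probe set, ranging from -0.456 (without mature B sort 3) to 0.298. The replicate block moved no count of light chain calls.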
